A study of Mus musculus with 3 samples.

Results

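The 10 genes described here encode the TGF-beta ligands (*Tgfb1*, *Tgfb2* and *Tgfb3*), their receptors (*Tgfbr1*, *Tgfbr2* and *Tgfbr3*) and the latent TGF-beta binding proteins (*Ltbp1*, *Ltbp2*, *Ltbp3* and *Ltbp4*). They were chosen by name as members of these 3 families, and all 10 were found among the 32285 genes of the count tables. The data are single-cell RNA-Seq of mononuclear cells from the costal diaphragm of male mice, with 1 library from WT mice (C57Bl/6J) on control diet (CD), 1 from WT mice on high-fat diet (HFD, 45% of kcal from lipid) and 1 from *Thbs1*-knockout mice (B6.129S2-Thbs1tm1Hyn/J) on the same HFD. Each diet was fed for 6 months, starting in young adult mice, and each library pools 2 mice. No library of knockout mice on CD was analysed here, and an effect of the knockout and an effect of the strain cannot be told apart. The muscle was digested with collagenase II and dead cells were sorted out by DAPI. Capture used the 10x Genomics 3′ chemistry, in which a molecular barcode (UMI) lets each captured transcript be counted once. With 1 library a group there is no replicate check of any difference between groups. Intervals are 95% Poisson intervals for levels and 95% exact conditional binomial intervals for ratios, they cover counting error only, and no test was made.

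The WT CD library held 34312860 UMIs in 4132 cell barcodes, the WT HFD library 31967976 in 3774 and the KO HFD library 36478779 in 4369, with medians of 7632.5, 8041.5 and 7554 UMIs a barcode. The WT CD library shared 7 barcodes with each of the other libraries, and the WT HFD and KO HFD libraries shared 2. Clustering without the 10 genes and their pathway lists gave 29 clusters. Clusters were named from marker genes with the ending "-like", and 8 classes held at least 50 cells in every library. The largest was the fibro-adipogenic progenitor (FAP)-like class of 6653 cells, the matrix-making stromal cells of muscle, which averaged 414 CPM (UMIs of the gene per 1000000 UMIs of the class) of *Pdgfra* and 15479 CPM of *Dcn*. The others were muscle stem cell (MuSC)-like (1221 cells), macrophage-like (1132), endothelial-like (883), B cell-like (705), lymphatic-like (274), dendritic cell-like (239) and T or NK cell-like (229). *Dcn*, a proteoglycan made by stromal cells, was also counted in other classes, and whether free RNA or mixed cells gave these UMIs was not tested. Its level was 133, 100.3 and 197 CPM in MuSC-like cells, while the macrophage-like class had 554, 491 and 430 CPM and dendritic cell-like cells had 839, 276 and 2316 CPM. Lymphatic-like cells had 477, 842 and 2268 CPM. Sets of 3 values are in the order WT CD, WT HFD, KO HFD throughout. Levels are compared between classes and libraries for the same gene or the same sum of genes, since genes differ in how well they are captured.

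TGF-beta is secreted as a dimer held inactive by its own propeptide. A latent TGF-beta binding protein ties this complex to fibrillin and other matrix fibres, and integrins, proteases or thrombospondin-1 can release the ligand. Free ligand binds TGFBR2, which recruits and phosphorylates TGFBR1 to start SMAD signalling, while TGFBR3 (betaglycan) presents ligand, TGF-beta 2 above all. In muscle the pathway is known for driving matrix production by stromal cells.

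*Thbs1*, the targeted gene (ENSMUSG00000040152), still had UMIs in the KO HFD library. FAP-like cells had 193, 232 and 229 CPM, the macrophage-like class had 110, 356 and 101 CPM, and neutrophil-like cells (57 in all) had 3761, 3740.4 and 1415 CPM. MuSC-like cells had 38.1, 8.82 and 31.9 CPM, endothelial-like cells 35.1, 10.6 and 37.3 CPM, and every other class lay between 0 and 656 CPM in each library. The KO HFD level in FAP-like cells was not below that of the WT CD library. A 3′ read that lies outside a deleted or replaced part of a gene is counted as before, so these UMIs do not check the label of the library.

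Of the 10 genes, 6 had their highest mean level of the 8 classes in FAP-like cells, namely *Tgfb3*, *Tgfbr1*, *Tgfbr3*, *Ltbp1*, *Ltbp2* and *Ltbp3*. *Tgfb1*, *Tgfbr2* and *Ltbp4* were highest in lymphatic-like cells and *Tgfb2* in endothelial-like cells. FAP-like cells held 82.0 to 86.0% of the UMIs of *Tgfb3* and *Ltbp4* over the 3 libraries, but 25.9 to 32.4% of those of *Tgfb1*. These shares also follow the size of the FAP-like class, which held 54.4, 52.9 and 55.2% of the barcodes. Macrophage-like cells held 25.8, 35.3 and 42.2% of the *Tgfb1* UMIs, a share that also follows how many such cells each library holds (238, 420 and 474).

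**Figure D1:**
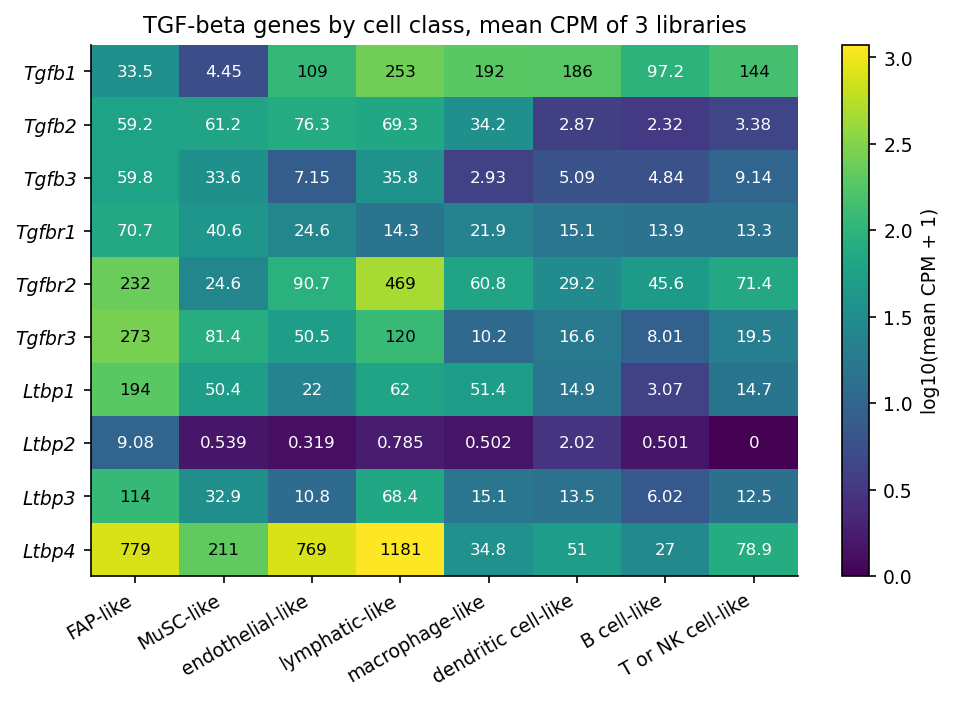
Mean CPM of the 3 libraries (number in each box, colour on a log10 scale of CPM + 1) for the 10 genes (rows) in the 8 cell classes (columns). *Tgfb1* runs from 4.45 CPM in MuSC-like to 253 CPM in lymphatic-like cells, while *Tgfb3* and *Ltbp2* are highest in FAP-like cells.

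*Tgfb1* (ENSMUSG00000002603, chr7:25687002-25705077 of GRCm38) encodes the most widely studied of the ligands. It was lowest of the 8 classes in MuSC-like cells, at 4.12, 3.86 and 5.37 CPM, and next lowest in FAP-like cells, at 35.6, 32.6 and 32.4 CPM. Its levels were 201, 318 and 240.1 CPM in lymphatic-like cells, 198, 182 and 197 CPM for the macrophage-like class and 178, 212 and 168 CPM in dendritic cell-like cells. The ranges of the last 2 overlapped, and the lymphatic-like range lay above that of the macrophage-like class. T or NK cell-like cells followed at 111, 156 and 166 CPM and endothelial-like cells at 112, 116 and 100.4 CPM, with ranges that overlapped. Monocyte-like cells, 73 in all, stood highest at 367, 313 and 331 CPM, above the range of every class with at least 50 cells a library except the lymphatic-like class, whose WT HFD value lay within it.

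*Tgfb2* (ENSMUSG00000039239, chr1:186622792-186705989) had another distribution. It was at 61.9, 79.0 and 87.9 CPM in endothelial-like cells, 73.9, 73.0 and 61.0 CPM in lymphatic-like cells, 62.3, 61.2 and 60.0 CPM in MuSC-like cells and 65.5, 57.7 and 54.5 CPM for the FAP-like class. Each of these neighbouring ranges overlapped the next. Within the endothelial-like class, *Tgfb2* was at 71.1, 98.2 and 110.7 CPM in the cluster led by *Slc26a10*, *Aqp7* and *Sox17* and at 10.9, 17.2 and 8.57 CPM in the cluster led by *Plvap*, *Vwf* and *Rasa4*. In B cell-, dendritic cell- and T or NK cell-like cells no library was above 5.37 CPM, on 34 UMIs in all.

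*Tgfb3* (ENSMUSG00000021253, chr12:86056745-86079041), a ligand of mesenchymal cells, was at 62.9, 56.2 and 60.3 CPM in FAP-like cells, 25.5, 37.7 and 44.3 CPM in lymphatic-like cells and 37.0, 27.6 and 36.3 CPM in MuSC-like cells. The FAP-like range lay above both others, which overlapped. Small classes of support cells stood higher, with 266, 165 and 75.8 CPM in mural cell-like cells (67 cells, 60 UMIs) and 124, 118 and 62.6 CPM in tenocyte-like cells (61 cells, 70 UMIs). Macrophage-like cells had 2.12, 3.11 and 3.55 CPM.

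For *Tgfb1*, *Tgfb2* and *Ltbp1*, whose levels in the macrophage-like clusters are described below, the 250 bases before the gene start listed by RefSeq (GRCm38.p6) are shown, 5′ to 3′ on the strand of the gene, with motif matches in capitals. RefSeq windows were at hand for 8 of the 10 genes. The motifs searched on both strands were the TATA box (TATAAA), the cAMP response element (TGACGTCA), the E-box (CACGTG) and the GC box (GGGCGG), and no match overlapped another in these windows.
*Tgfb1*, chr7:25686752-25687001, + strand: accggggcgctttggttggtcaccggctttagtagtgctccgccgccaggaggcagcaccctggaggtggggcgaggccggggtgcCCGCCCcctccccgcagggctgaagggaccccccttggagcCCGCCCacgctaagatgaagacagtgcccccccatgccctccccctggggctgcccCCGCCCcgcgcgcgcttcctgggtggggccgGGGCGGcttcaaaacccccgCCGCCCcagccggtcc
*Tgfb2*, chr1:186705990-186706239, - strand: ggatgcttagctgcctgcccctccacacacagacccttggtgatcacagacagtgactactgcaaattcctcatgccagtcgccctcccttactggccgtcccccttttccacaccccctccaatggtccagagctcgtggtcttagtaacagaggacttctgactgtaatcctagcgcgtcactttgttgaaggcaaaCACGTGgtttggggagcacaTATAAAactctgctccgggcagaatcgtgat
*Ltbp1*, chr17:75005279-75005528, + strand: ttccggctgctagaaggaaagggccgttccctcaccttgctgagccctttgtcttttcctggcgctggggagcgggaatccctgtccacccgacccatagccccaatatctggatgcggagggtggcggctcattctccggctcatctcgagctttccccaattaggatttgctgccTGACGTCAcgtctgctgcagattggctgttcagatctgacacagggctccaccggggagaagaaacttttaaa
The *Tgfb1* window had 5 GC boxes, no TATA box and 75.2% G or C. The *Tgfb2* window had a TATA box starting 31 bases and an E-box starting 51 bases before the listed start, with 53.6% G or C. The first of 2 *Ltbp1* windows had a cAMP response element starting 73 bases before the start, and the other window had none of the 4 motifs. Of 32817 promoter windows of this length, 12.4% held the TATA box, 1.55% the cAMP response element, 6.02% the E-box and 32.7% the GC box. A match describes the letters and does not show that a factor binds there.

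Among the receptors, *Tgfbr1* (ENSMUSG00000007613, chr4:47353222-47414931), the signalling kinase, was at 72.1, 67.4 and 72.7 CPM in FAP-like cells, followed by 50.4, 38.6 and 32.9 CPM in MuSC-like cells. These ranges did not overlap, and no other of the 8 classes passed 29.5 CPM in any library. Monocyte-like cells had 134, 116 and 92.8 CPM on 34 UMIs.

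*Tgfbr2* (ENSMUSG00000032440, chr9:116084293-116175360), which binds the ligand, was at 426, 518 and 462 CPM in lymphatic-like cells and 211, 264 and 219 CPM for the FAP-like class. Endothelial-like cells had 92.0, 85.5 and 94.6 CPM and MuSC-like cells 27.8, 20.4 and 25.6 CPM. The 4 ranges were separate. The 2 endothelial-like clusters stood in the opposite order to that of *Tgfb2*, with 158, 137 and 137 CPM of *Tgfbr2* in the *Plvap*-led cluster and 80.0, 69.4 and 82.4 CPM in the *Slc26a10*-led cluster.

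*Tgfbr3* (ENSMUSG00000029287, chr5:107106570-107289629), the coreceptor betaglycan, was at 256, 287 and 277 CPM in FAP-like cells, 125, 119 and 116 CPM in lymphatic-like cells and 101, 73.3 and 70.1 CPM in MuSC-like cells. The 3 ranges were separate. In B cell-like cells it was at 7.96, 8.20 and 7.86 CPM, beside 483, 290.3 and 695 CPM of *Dcn*.

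Of the latency proteins, *Ltbp1* (ENSMUSG00000001870, chr17:75005568-75392512) covalently binds latent TGF-beta. It was at 191, 193 and 197 CPM in FAP-like cells and at 61.2, 56.5 and 68.3 CPM in lymphatic-like cells. Tenocyte-like cells had 167, 158 and 161 CPM, and of the small classes mural cell-like cells came next, at 163, 76.9 and 56.8 CPM. *Ltbp2* (ENSMUSG00000002020, chr12:84783212-84876532), which does not bind latent TGF-beta and sits in elastic fibres, had 241, 135 and 165 UMIs in FAP-like cells (12.2, 7.19 and 7.85 CPM). FAP-like cells held 94.5, 81.3 and 93.8% of its UMIs, beside 54.4, 52.9 and 55.2% of the barcodes.

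*Ltbp3* (ENSMUSG00000024940, chr19:5740904-5758532), another carrier of latent TGF-beta, was at 116, 113 and 114 CPM in FAP-like cells, within the mesothelial-like range of 97.8, 165 and 134 CPM and above the 79.0, 67.1 and 59.1 CPM of lymphatic-like cells. *Ltbp4* (ENSMUSG00000040488, chr7:27305136-27337692), needed for elastic fibres and a known modifier of muscle disease in mice, was at 1119, 1246 and 1178 CPM in lymphatic-like cells, 820.5, 746 and 771 CPM for the FAP-like class and 805, 708 and 792 CPM in endothelial-like cells. The FAP-like and endothelial-like ranges overlapped, and the lymphatic-like range lay above both. Macrophage-like cells averaged 34.8 CPM of *Ltbp4*.

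Summed by role, the 3 ligands came to 164, 147 and 147 CPM for the FAP-like class and 210.5, 269 and 209.9 CPM for the macrophage-like class. The 3 receptors gave 540, 618 and 569 CPM for the FAP-like class against 77.2, 119.7 and 81.9 CPM. The 4 latency proteins gave 1139, 1059 and 1090 CPM against 74.7, 154 and 76.6 CPM. In all 3 libraries macrophage-like cells were thus higher in ligand and lower in receptor and latency transcripts, with mean log2 ratios of 0.58, -2.66 and -3.51 and no overlap of the libraries' values. Of the ligands, *Tgfb1* was higher in macrophage-like than in FAP-like cells in every library and *Tgfb3* lower, while *Tgfb2* was lower in the WT CD and KO HFD libraries and higher in the WT HFD library.

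The 8 FAP-like clusters differed in which members they held. The highest cluster was the same in the 3 libraries for *Tgfb1*, *Tgfb3*, *Tgfbr1*, *Tgfbr2*, *Ltbp2* and *Ltbp4*. Cluster 2, led by *Dact2*, *Stmn4* and *Wnt10b*, had the most *Tgfbr2*, at 364, 439 and 397 CPM. The other 7 clusters lay between 150.2 and 306 CPM in every library, below the lowest value of cluster 2. Cluster 1, led by *Sfrp2*, *Avpr1a* and *Col8a2* and holding the tenocyte marker *Tnmd* among its 10 leading genes, had the most *Tgfbr1*, at 114, 118 and 129 CPM, against at most 84.4 CPM elsewhere. It was also highest in *Tgfb3*, at 109.9, 107 and 105 CPM, with cluster 8 at 103 CPM in the WT CD library the nearest, and lowest in *Tgfb1*, at 15.8, 14.4 and 18.6 CPM. Cluster 4, led by *Dio2*, *Pthlh* and *Sfrp4*, had the most *Tgfb1*, at 67.6, 53.6 and 56.8 CPM, and the most *Ltbp4*, at 1070, 918 and 981 CPM.

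*Ltbp2* was highest in cluster 4, at 50.4, 17.9 and 34.1 CPM (144, 68 and 93 of the 241, 135 and 165 FAP-like UMIs), and no other FAP-like cluster passed 13.0 CPM. *Tgfbr3* was the most even of the receptors, with cluster means between 222 and 310 CPM, and *Ltbp1* means ran from 140.1 CPM in cluster 6 to 245 CPM in cluster 1. *Tgfb2* had its highest cluster means in clusters 8 and 5, both led by *Sult1e1* and *Col6a5*, at 116 and 81.0 CPM against 27.9 to 69.8 CPM in the other clusters, but in the WT CD library cluster 5 (53.9 CPM) lay below cluster 1 (82.7 CPM).

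**Figure D2:**
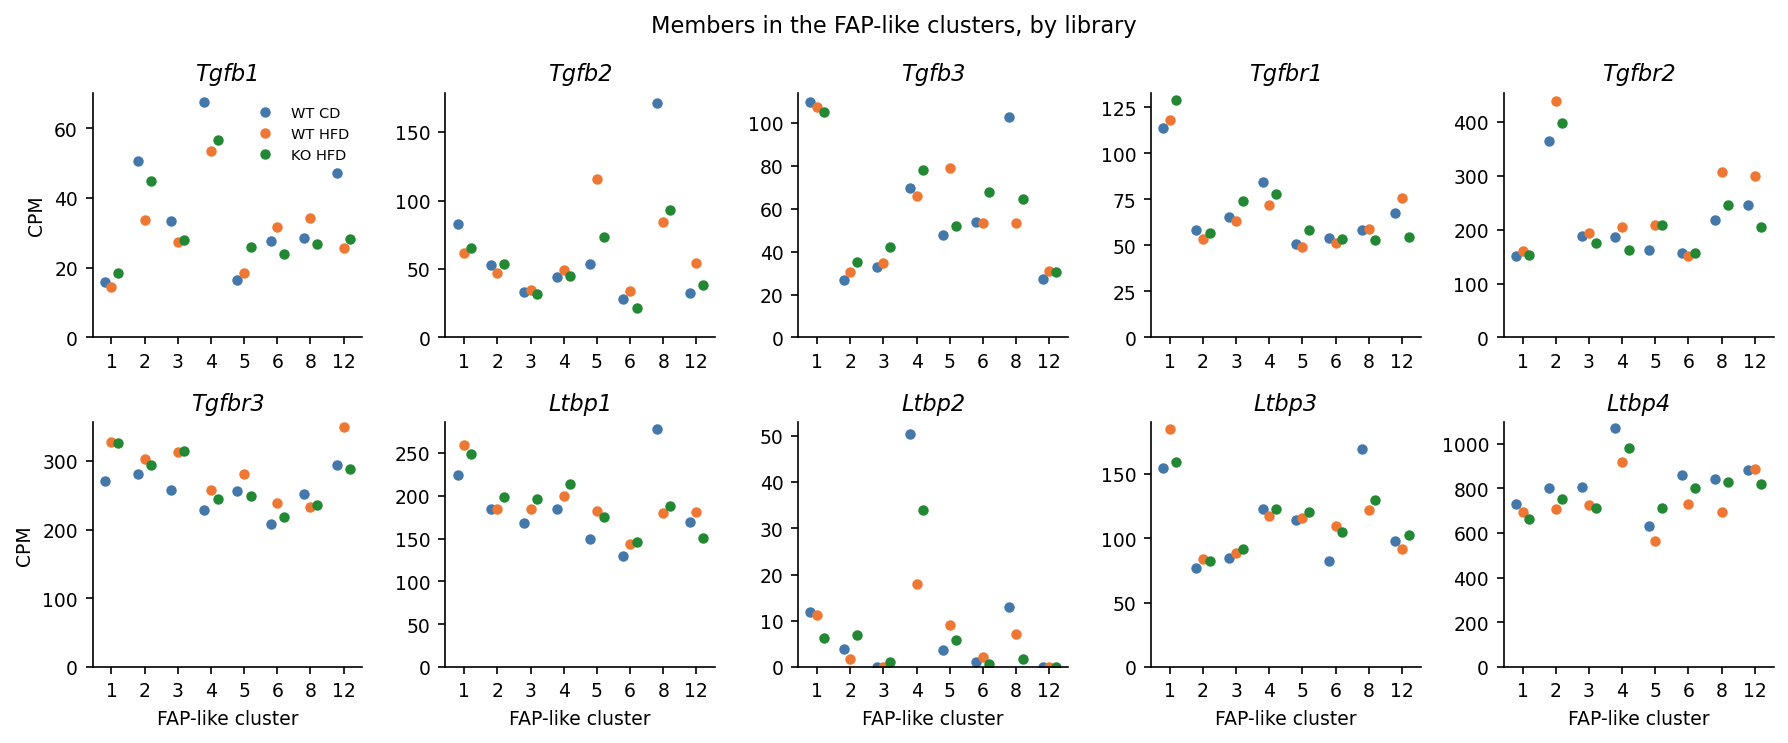
CPM of each of the 10 genes (panels, vertical axes from 0) in the 8 FAP-like clusters (horizontal axis, cluster number), with 1 point for each library. *Tgfbr2* stands out in cluster 2, *Tgfbr1* in cluster 1 and *Ltbp2* in cluster 4 in all 3 libraries.

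The first comparison, WT HFD against WT CD, asks how the diet moved these genes. A gene was called where the libraries differed at least 1.5-fold and together held at least 50 UMIs of it, and all 10 genes reached that count in FAP-like cells. Of the 10 genes, 1 was called, *Ltbp2*, against 4.44% of the 12038 genes tested. Its level was 12.2 CPM on CD and 7.19 CPM on HFD (log2 ratio -0.76, interval -1.08 to -0.45), and the call was lost when the CPM of single cells was averaged (-0.51). *Tgfbr2* was higher on HFD by less than that, at 264 against 211 CPM (0.32, 0.26 to 0.38), as was *Tgfbr3*, at 287 against 256 CPM (0.16, 0.11 to 0.22). *Tgfb2* (-0.18), *Tgfb3* (-0.16) and *Ltbp4* (-0.14) were lower beyond counting error on HFD, and the intervals of *Tgfb1*, *Tgfbr1*, *Ltbp1* and *Ltbp3* held 0. The median log2 ratio of the 10 genes was -0.11, beside 0.07 over all genes tested.

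The second comparison, KO HFD against WT HFD, asks how loss of *Thbs1* moved them on HFD. It shares the WT HFD library with the first, so a chance high or low value there moves the 2 ratios in opposite directions. None of the 10 genes was called in FAP-like cells, against 3.61% of 12090 genes tested. *Tgfbr2* was at 264 CPM in WT HFD and 219 CPM in KO HFD (-0.27, -0.33 to -0.21), which left it near the WT CD level of 211 CPM. *Tgfbr1* (0.11) and *Ltbp4* (0.05) were higher in KO HFD beyond counting error, and the intervals of the other 7 genes held 0, *Ltbp2* among them at 7.19 and 7.85 CPM (0.13, -0.21 to 0.47). The median of the 10 genes was 0.02, beside -0.03 over all genes tested.

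**Figure D3:**
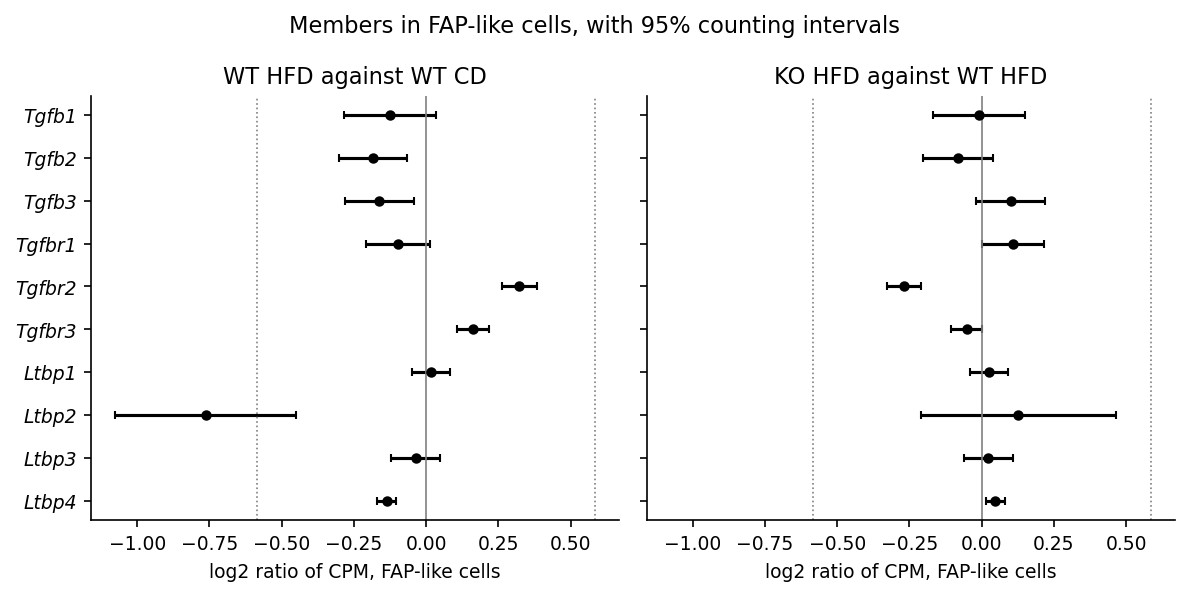
Log2 ratio of CPM in FAP-like cells (horizontal axis) for each of the 10 genes (vertical axis), with 95% counting intervals, for WT HFD against WT CD (left) and KO HFD against WT HFD (right). Dotted lines mark 1.5-fold, which *Ltbp2* alone passes, on the left, a call that was lost with the mean over cells (-0.51).

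Cluster 1 has the tenocyte marker *Tnmd* among its 10 leading genes, so the class was also compared without it. No FAP-like cluster has a FAP marker among its 10 leading genes, and all 4 FAP markers were each found in at least 10% of the cells of cluster 1. *Ltbp2* was again the 1 gene called for HFD against CD (-0.89, -1.24 to -0.54), against 4.43% of genes tested, and none was called for KO HFD against WT HFD, against 3.49%. *Tgfbr2* changed by 0.31 and -0.27. The mix of FAP-like clusters differed between libraries. Cluster 2, the highest in *Tgfbr2*, held 314, 400 and 331 of the 2246, 1995 and 2412 FAP-like cells. With the 8 clusters weighted alike, the 2 *Tgfbr2* ratios were 0.23 and -0.20, and its HFD-to-CD intervals lay above 0 within clusters 2 (0.27), 5 (0.37), 8 (0.49) and 12 (0.29) and held 0 within the other 4 clusters. The part of the mix in the class values was otherwise not tested.

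By cluster, the *Ltbp2* difference between HFD and CD lay mostly in cluster 4. It had 50.4 CPM (144 UMIs) on CD and 17.9 CPM (68 UMIs) on HFD (-1.49, -1.93 to -1.06). In KO HFD it stood at 34.1 CPM (93 UMIs, 0.92 against WT HFD, 0.46 to 1.40). On 43 UMIs or fewer a library, *Ltbp2* was also lower on HFD in clusters 1 (11.9 and 11.3 CPM), 2 (3.82 and 1.81) and 8 (13.0 and 7.20). It was higher in clusters 5 (3.65 and 9.05 CPM) and 6 (1.11 and 2.26). *Ltbp2* was the 1 gene of the 10 called in cluster 4 in either comparison, where 6.12 and 4.39% of genes were called. *Tgfb2* went opposite ways in the 2 *Sult1e1*-led clusters. In cluster 5 it was at 53.9, 116 and 73.4 CPM, and in cluster 8 at 171, 84.2 and 93.2 CPM. *Tgfb3* did the same, with 47.8, 78.8 and 51.9 CPM in cluster 5 and 103, 53.2 and 64.6 CPM in cluster 8. In WT HFD against WT CD, these 2 genes were called of 9 tested in cluster 5 and they and *Ltbp1* of 9 tested in cluster 8, against 10.6 and 12.1% of genes. In KO HFD against WT HFD, *Tgfb2* and *Tgfb3* were called in cluster 5 and no member in cluster 8, against 6.73 and 6.88%. Cluster 6, led by *Lsamp*, had 1 of 9 called in that comparison, against 5.98% of genes. This was *Tgfb2*, lower in KO HFD (33.9 and 21.6 CPM, 45 and 34 UMIs), with an interval that held 0 (-0.65, -1.34 to 0.02). In cluster 12, led by *Has2*, 2 of 9 were called for HFD against CD, against 9.96% of genes, with *Tgfb2* higher (32.2 and 54.6 CPM, log2 ratio 0.76, 0.10 to 1.45) and *Tgfb1* lower (47.3 and 25.7 CPM, 47 and 24 UMIs, log2 ratio -0.88, -1.65 to -0.14), and none of 9 for KO HFD against WT HFD, against 7.99%. With clusters 5 and 8 summed, *Tgfb2* was at 110.7, 100.2 and 81.3 CPM (-0.14, -0.34 to 0.05 for HFD against CD) and *Tgfb3* at 74.5, 66.2 and 56.9 CPM (-0.17, -0.41 to 0.07). Their ratios for KO HFD against WT HFD were -0.30 (-0.50 to -0.10) and -0.22 (-0.47 to 0.03). Of 10 members tested in this sum, *Ltbp2* alone was called for KO HFD against WT HFD, against 5.22% of genes. It was lower in KO HFD, on 30 and 23 UMIs (-0.95, -1.80 to -0.12). None was called for HFD against CD, against 8.50%.

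In macrophage-like cells *Tgfb2* and *Ltbp1* differed widely between libraries. *Tgfb2* was at 10.6, 83.3 and 8.88 CPM and *Ltbp1* at 20.4, 109.5 and 24.3 CPM, while *Tgfb1* stayed at 198, 182 and 197 CPM. For HFD against CD, 4 of the 8 members tested were called, all higher on HFD (*Tgfb2*, *Tgfbr1*, *Tgfbr3* and *Ltbp1*), against 13.6% of genes, although the interval of *Tgfbr3* held 0 (0.71, -0.03 to 1.49). For KO HFD against WT HFD, 3 of 8 were called, all lower (*Tgfb2*, *Tgfbr1* and *Ltbp1*), against 9.61%.

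These *Tgfb2* and *Ltbp1* UMIs came from 1 small cluster. Cluster 21, led by *Saa3*, *Alox15* and *Cd5l*, held 8, 56 and 14 cells and 83.3, 94.4 and 60.0% of the macrophage-like *Tgfb2* UMIs. It held 55.2, 96.6 and 70.1% of the *Ltbp1* UMIs and 36.3, 88.1 and 31.4% of the *Thbs1* UMIs. *Tgfb2* was at 240.4, 403 and 141 CPM there, against at most 7.16 CPM in cluster 10 (led by *Folr2*, *Cd209f* and *Ccl12*) and cluster 11 (led by *Mmp12*, *Retnla* and *Lyz1*). *Ltbp1* was at 308, 542 and 450.4 CPM, against 8.97, 6.09 and 7.95 CPM in cluster 11 and 8, 6 and 11 UMIs in cluster 10, and *Thbs1* was at 1087, 1608 and 835 CPM. *Tgfb1* was at 163, 113 and 145 CPM in cluster 21, below the 188 to 210 CPM of clusters 10 and 11 in every library. *Tgfb3* and *Ltbp2* had 0 UMIs there. Without cluster 21, the macrophage-like class had 1.83, 5.80 and 3.69 CPM of *Tgfb2* and 9.52, 4.69 and 7.57 CPM of *Ltbp1*, the latter on 26, 17 and 41 UMIs. The *Ltbp1* ratios then changed sign, from 2.42 to -1.02 (-1.99 to -0.08) for HFD against CD, with fewer than the 50 UMIs needed for a call, and from -2.17 to 0.69 (-0.16 to 1.60, which holds 0) for KO HFD against WT HFD. *Tgfbr1* was then at 17.2, 33.4 and 19.8 CPM (0.96, 0.46 to 1.48, and -0.76, -1.15 to -0.37) and *Tgfbr2* at 53.4, 88.9 and 51.9 CPM (0.73, 0.45 to 1.03, and -0.78, -1.01 to -0.54), both past 1.5-fold in both comparisons. The mix of the remaining clusters differed, with 98, 242 and 212 cells of cluster 10 beside 132, 122 and 248 of cluster 11. *Tgfbr2* was at 116, 137 and 111 CPM in cluster 10 (0.24, -0.12 to 0.61, and -0.30, -0.58 to -0.01) and at 30.9, 41.0 and 26.0 CPM in cluster 11 (0.41, -0.10 to 0.92, and -0.66, -1.11 to -0.20). The part of the mix in the class values was not tested.

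Cluster 21 had macrophage transcripts, with *Lyz2* at 39810, 41881 and 44245 CPM, *Itgam* at 587, 726 and 943 CPM and *Adgre1* at 231, 365 and 418 CPM, each above its mean over the libraries in the whole macrophage-like class (16330, 229 and 177 CPM). *Csf1r* (202, 209 and 216 CPM) and *Cd68* (38.5, 252 and 263 CPM) were below their class means of 364 and 283 CPM, and *C1qa* (3971, 1169 and 1759 CPM) was below its mean of 2506 CPM in the HFD libraries, while the mesothelial genes *Msln* and *Upk3b* were at 0. *Dcn* was at 0, 483 and 4.69 CPM, and its part in the *Tgfb2* and *Ltbp1* levels was not tested.

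**Figure D4:**
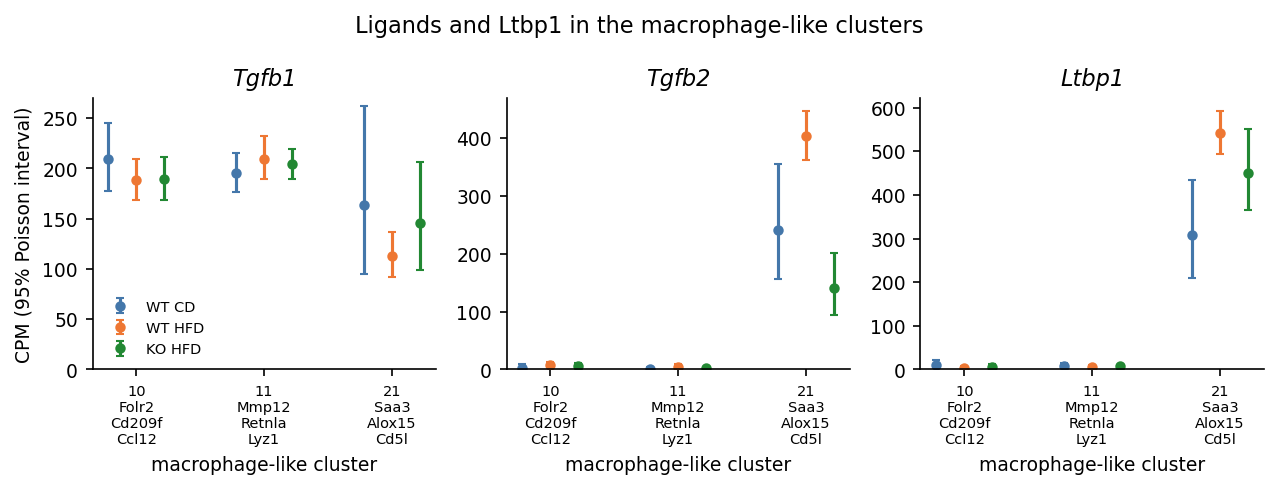
CPM (vertical axis, from 0) of *Tgfb1*, *Tgfb2* and *Ltbp1* in the 3 macrophage-like clusters (horizontal axis, cluster number and 3 leading genes), with 1 point for each library and 95% Poisson intervals. *Tgfb2* and *Ltbp1* are near 0 in clusters 10 and 11 and at 141 CPM or more in cluster 21, while *Tgfb1* is in all 3.

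Within cluster 21, *Tgfb2* differed between WT HFD and WT CD (0.74, 0.16 to 1.39, 25 UMIs on CD) and between KO HFD and WT HFD (-1.52, -2.11 to -0.98), and *Ltbp1* between WT HFD and WT CD (0.82, 0.30 to 1.38). Of 3 members tested in this small cluster, 2 were called in the first comparison and 1 in the second. Of all genes tested there, 35.5 and 19.7% were called. With so few members tested, these counts cannot show whether a change is particular to them. Cluster 11 has the monocyte marker *Ccr2* and no macrophage marker among its 10 leading genes, and clusters 10 and 11 were therefore compared apart. All 6 macrophage markers were each found in at least 10% of the cells of cluster 11, and the macrophage list scored highest there. *Tgfbr1* was at 24.8, 38.0 and 31.0 CPM in cluster 10 and at 14.5, 28.8 and 14.8 CPM in cluster 11. It was the 1 member called for HFD against CD in cluster 10 (0.62, of 4 tested, against 13.3% of genes), where its interval of -0.15 to 1.45 held 0, and in cluster 11 (of 5, against 11.4%). For KO HFD against WT HFD, 0 of 4 were called in cluster 10, against 7.75%, and 3 of 5 in cluster 11, against 8.5%, with *Tgfbr1* and *Tgfbr2* lower and *Ltbp4* higher in KO HFD.

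In MuSC-like cells, 2 of 8 members tested were called for HFD against CD, against 18.6% of genes, a share in the range of the background. *Ltbp4* was at 309.8, 149.9 and 172 CPM (-1.05, -1.26 to -0.84) and *Ltbp1* at 37.0, 61.7 and 52.4 CPM (0.74, 0.30 to 1.18). *Dcn* was, as *Ltbp4*, lowest on WT HFD in these cells but highest in KO HFD, and its part in the *Ltbp4* level was not tested. None of 8 was called for KO HFD against WT HFD, against 7.85% of genes.

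In lymphatic-like cells *Tgfb1* was the 1 member called of 7 for HFD against CD (0.66, 0.29 to 1.04, 79 UMIs on CD), against 17.7% of genes, and none of 8 was called for KO HFD against WT HFD, against 12.9%. *Dcn* stood at 477, 842 and 2268 CPM in this class, and its part in the values was not tested. None of 7 members was called in endothelial-like cells in either comparison, against 8.99 and 9.13% of genes. In B cell-like cells 2 of 5 were called, *Tgfb1* higher and *Ltbp4* lower on HFD, against 28.3% of genes, and then 1 of 3, *Ltbp4*, higher in KO HFD, against 16.3%. The B cell-like class holds a cluster led by *Jchain* and *Igkc* with 101, 7 and 11 cells, and over all its genes the median log2 ratio of HFD to CD was 0.35, so its ratios are given with reserve.

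In dendritic cell-like cells, *Ltbp4* was at 17.6, 15.5 and 120 CPM and *Tgfbr3* at 12.2, 2.21 and 35.4 CPM, and *Dcn* moved with them at 839, 276 and 2316 CPM. The part of stromal RNA in these levels was not tested. No member was called of 1 tested for HFD against CD, against 15.5% of genes, and *Ltbp4* of 2 tested for KO HFD against WT HFD, against 16.9%. In T or NK cell-like cells *Ltbp4* was at 53.7, 51.0 and 132 CPM and *Tgfbr2* at 82.3, 48.0 and 83.8 CPM, while *Dcn* was at 1146, 1244 and 1286 CPM. *Tgfbr2* was the 1 member called of 2 tested for HFD against CD, against 13.5% of genes, and *Tgfbr2* and *Ltbp4* were the 2 called of 3 for KO HFD against WT HFD, against 19.7%. Both *Tgfbr2* intervals held 0 (-0.78, -1.70 to 0.07, and 0.81, -0.04 to 1.72).

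Around the 10 genes, the pathway was followed in FAP-like cells through lists of related genes. Of 14 genes that can activate latent TGF-beta, 11 could be tested and none was called in either comparison, with median log2 ratios of 0.17 and -0.02. In the first comparison 7 of the 11 intervals lay above 0 and none below, and in the second 1 lay above and 4 below. The counts of called genes in this and the next lists stand beside 4.44 and 3.61% of all genes called in FAP-like cells. The most abundant were *Mmp2*, a matrix protease (512, 586 and 648 CPM), the integrin subunits *Itgb1* (326, 389 and 354 CPM) and *Itgb5* (209.9, 219 and 202 CPM), and *Thbs1*, given above. Of 4 further receptors, coreceptors and decoys none was called, with medians of -0.16 and 0.08. They were *Eng* (73.7, 77.9 and 73.9 CPM) and *Acvrl1* (65.4, 70.9 and 71.0 CPM), known from endothelium, and *Bambi* (44.9, 30.2 and 40.8 CPM) and *Cd109* (13.0, 9.80 and 10.9 CPM), which dampen the signal. Of these 4, 1 interval lay above 0 and 2 below in the first comparison, and 1 above and none below in the second.

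Of 11 matrix partners, 2 were called for HFD against CD, both higher. *Fbn1*, the fibrillin that anchors the latent complex, was at 785, 1238 and 993 CPM (0.66, 0.63 to 0.69), and its HFD-to-CD ratio was above 0 in all 8 clusters, from 0.23 in cluster 6 to 1.18 in cluster 5. *Adamtsl2*, a secreted protein that binds fibrillin and LTBP1, was the other, at 10.1, 19.3 and 16.5 CPM (0.94, 0.69 to 1.20). The other abundant partners were *Dcn* (16418, 14262 and 15756 CPM), *Bgn* (1612, 1713 and 1641 CPM) and *Aspn* (1012, 1193 and 825 CPM), small proteoglycans that bind TGF-beta. *Fn1* was at 760, 1078 and 1033 CPM (0.50, 0.47 to 0.53 for HFD against CD, and -0.06, -0.09 to -0.03 for KO HFD against WT HFD). None of the 11 was called for KO HFD against WT HFD. The medians of the list were 0.24 and -0.11, with 8 intervals above 0 and 2 below in the first comparison and 2 above and 7 below in the second.

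Of 11 signalling genes, which include the SMADs and their inhibitors, none was called, with medians of 0.16 and -0.10. Among these 11, 4 intervals lay above 0 and 3 below in the first comparison, and 1 above and 6 below in the second. The most abundant were *Pmepa1* (586, 525 and 474 CPM), *Ski* (159, 178 and 165 CPM) and *Skil* (119, 120.0 and 120.2 CPM), all negative regulators, and the inhibitory *Smad7* (86.0, 70.4 and 83.8 CPM). Of 22 target genes, *Tnc*, a matrix glycoprotein, was the 1 called, higher on HFD than CD (1.18, 0.50 to 1.89) and higher again in KO HFD than WT HFD (1.23, 0.78 to 1.69), at 1.37, 3.09 and 7.23 CPM (27, 58 and 152 UMIs). The most abundant targets were the collagens *Col3a1* (2644, 3605 and 3009 CPM), *Col1a2* (2172, 2673 and 2540 CPM) and *Col1a1* (954, 1035 and 1030.5 CPM), and *Id3* (560, 512 and 657 CPM), a target better known from BMP signalling. The medians of the target list were 0.09 and 0.08, beside 0.07 and -0.03 over all genes tested. Its members went both ways, with 12 intervals above 0 and 8 below in the first comparison and 10 above and 8 below in the second.

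Across the 16 named classes, the genes with the pattern most like each member by Pearson's r of log2(CPM + 1), over 12677 genes with at least 10 CPM in 1 class, are given as a description, since the classes share libraries and differ in depth. They were *Ikbkb*, *Sh3bgrl3* and *Fxyd5* for *Tgfb1* (r = 0.909 to 0.924), *Spaca6*, *Tspan4* and *Dip2c* for *Tgfb2* (0.961 to 0.974), and *Slc25a23*, *Clip3* and *Ift81* for *Tgfb3* (0.959 to 0.969). For the receptors they were *Wdfy2*, *Fnip1* and *Ubap1* (*Tgfbr1*, 0.911 to 0.914), *Impad1*, *Mindy2* and *Dgcr2* (*Tgfbr2*, 0.930 to 0.939) and *Golim4*, *2610008E11Rik* and *Dcun1d3* (*Tgfbr3*, 0.959 to 0.963). The latency proteins had *Dpt*, *Pcolce2* and *Svep1* (*Ltbp1*, 0.892 to 0.910), *Gabra3*, *Naaladl2* and *Col4a4* (*Ltbp2*, 0.913 to 0.933), *Klhl22*, *Mir99ahg* and *Zfp503* (*Ltbp3*, 0.960 to 0.966) and *Amotl1*, *Trip10* and *Msantd4* (*Ltbp4*, 0.969 to 0.984). No 2 members shared a gene in these lists.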

How the data were processed

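The files analysed are 3 single-cell RNA-Seq count tables of diaphragm mononuclear cells, 1 each for WT CD, WT HFD and KO HFD. The authors mapped reads to GRCm38 (mm10) with Cell Ranger, version 6.1.1 in the submitters' processing notes and 6.1.0 in the file headers, and deposited UMI counts per gene and cell barcode, not normalized. The 10 genes, their pathway lists and the markers were chosen with earlier results of these data known.

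All barcodes were kept. In Python 3.11.15 with scanpy 1.11.5 and leidenalg 0.10.2, the 2000 most variable genes (library as batch, the 10 genes and the lists left out), 30 principal components, 15 neighbours and Leiden clustering at resolution 1 gave the clusters. Names came from marker lists: the list whose genes had, on average, the largest log2 ratio in a cluster over the rest named it, provided that the mean was 1 or more and 3 markers were each found in 10% of its cells, and 1.96, 2.15 and 2.27% of cells stayed unnamed. Scrublet marked 1.26, 1.09 and 1.33% of barcodes as doublets, which were kept. UMIs were summed by class and library, divided by the sum's total (CPM), and given intervals with scipy 1.17.1. The ratio and its interval were tried on simulated Poisson counts of deep libraries. These hold no variation between cells or mice, so the trial does not check the intervals for such variation or for small counts. The named genes were the 10 members, *Thbs1*, called list genes with the 4 most abundant of each list and *Fn1*, and the 3 genes nearest each member in pattern. Alternatives changed the resolution, gating, doublets, cell filter, scaling (TMM, edgeR 4.0.16), averaging, clusters included and thresholds. The authors' cluster names were not used here, and differences from them may come from the rebuilt classes.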

Additional observations from a re-analysis of the deposited data

Results flagged for a closer look

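In the comparison of WT HFD with WT CD, *Tgfb2* was higher on HFD in FAP-like clusters 5 and 12 and *Tgfb3* in cluster 5, and both were lower in cluster 8, each beyond 1.5-fold and counting error. These differences between clusters were not tested, as each group has 1 library. The log2 ratio of *Tgfb2* was 1.10 in cluster 5 and -1.02 in cluster 8, a difference of 2.12, and it was 0.76 in cluster 12 (led by *Has2*), 1.79 above cluster 8. The log2 ratio of *Tgfb3* was 0.72 in cluster 5 and -0.95 in cluster 8, a difference of 1.67. Clusters 5 and 8 share *Sult1e1* and *Col6a5* among their leading genes, and with their cells summed the log2 ratios were -0.14 for *Tgfb2* and -0.17 for *Tgfb3*.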

How the results depend on the processing

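No paired analysis was possible because each group has 1 library. The count of 6 genes highest in FAP-like cells was 5 when each cell was gated by its own marker UMIs and 6 under the other planned settings. The macrophage-like to FAP-like log2 ratio of the ligand sum was 0.98 and that of the receptor sum -2.26 with TMM scaling, and that of the latency sum was -4.21 without cluster 21, an alternative chosen after seeing the data. Leaving out each library in turn gave 0.44 to 0.69 for the ligand sum, -2.80 to -2.58 for the receptor sum and -3.88 to -3.31 for the latency sum. In FAP-like cells for HFD against CD, the count of 1 called gene was 0 with the mean over cells of each cell's CPM (*Ltbp2* at -0.51) and 2 at the lower fold threshold, with *Tgfbr2* the other. In macrophage-like cells for KO HFD against WT HFD, 5 genes in place of 3 were called with doublets removed, and without cluster 21 the median log2 ratio of the members tested was 0.0042 in place of -0.44, with *Tgfbr1* at -0.76 and *Tgfbr2* at -0.78, in a class whose mix of clusters 10 and 11 differed between libraries (*Tgfbr2* at -0.30 within cluster 10 and -0.66 within cluster 11). Leaving out cluster 21 also turned the macrophage-like *Ltbp1* ratio to -1.02 for HFD against CD, on fewer UMIs than a call needs, and to 0.69 for KO HFD against WT HFD, with an interval that holds 0, and no other called value among the FAP-like and macrophage-like ratios and sums changed sign under the alternatives tried. Small classes are limited by depth: in dendritic cell-like cells of WT HFD, 3 UMIs, the count set as a floor, came to 6.62 CPM.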
